A study of Andropogon gerardi with 36 samples.

Results

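Big bluestem (Andropogon gerardi), a perennial C4 grass of the tallgrass prairie, was sampled in 2 sets within July, named JulyB and JulyA, and the RNA was compared between plots on 2-colour arrays built for maize. The arrays with either name in their title were taken: 12 of the 36 arrays of the series, 6 of JulyB and 6 of JulyA, where 34 arrays of the series could be used. The plants grew under rainout shelters on the Konza Prairie in a study of warming and soil moisture. Each array set total RNA of 1 plot, in Cy5, against total RNA of its partner plot, in Cy3, and the plot pairs were 2 and 3, 4 and 5, and 6 and 9.

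The arrays of the sets were matched by plot pair and subplot digits into 6 couples, each of 1 JulyB and 1 JulyA array. A plant code gives the plot, the subplot and a letter. Couple 1 set plot 3, subplot 1, letter c against plot 2, subplot 1, letter c at JulyB, and the same codes with the dyes exchanged at JulyA. Couple 2 set 32b against 24b at JulyB and 24b against 32d at JulyA, so its dyes were exchanged as well. Couple 3 held 41a against 51c at JulyB and 41c against 51c at JulyA, and couple 4 held 42d against 54c at both times. Couple 5 held 61a against 91c at both times, and couple 6 held 64a against 94b at JulyB and 64b against 94a at JulyA. Both codes were thus the same within couples 1, 4 and 5. Of the 24 channel labels 4 lack the sampling time, and the array title supplied it. The sources used here do not give the tissue, the dates of the sets, the treatment of single plots and subplots, or the meaning of the letter. Every difference below is therefore between sampling sets.

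What an array of this kind reports is the ratio of 2 plots for each spotted maize sequence, not a level. A JulyB-minus-JulyA difference in a ratio is a difference between the sets in the measured balance of partner plots. The ratios are on the log2 scale with the lower-numbered plot on top ("turned"), on the assumption that the authors divided Cy5 by Cy3. No source states that direction, so a sign serves to compare arrays and cannot tell which plot had more transcript. Turning matters only in couples 1 and 2. There, with turned ratios a dye effect does not cancel in JulyB minus JulyA, and with ratios as deposited the plot difference does not cancel. In couples 3 to 6 both versions are the same and a dye effect cancels. These are bulk samples, in which fewer cells of a type and less RNA per cell cannot be told apart.

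Several of the annotated genes have roles known from plants. MNB1b is a chromosomal DNA-binding protein of the high mobility group (HMG) type, which bends DNA and is a component of chromatin. Proteins of the hsp70 family are chaperones that hold unfolded proteins and are induced by heat in plants, and superoxide dismutases such as Sod4A remove superoxide radicals. The mbd genes encode proteins with a methyl-CpG-binding domain, a module that recognises methylated DNA, and tua4 encodes an alpha-tubulin of the microtubules. A single gene symbol was carried by 1800 probes, and 539 of the 583 symbols were locus numbers, for which no function is given here. No probe sequences were used.

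Profiles of the 12 arrays were compared first. The highest correlation across probes among the 66 array pairs was between the JulyA arrays of couple 4 (plots 4 and 5) and couple 5 (plots 6 and 9), with Pearson r = 0.528 over 2605 probes, although these arrays are labelled as different plots. Whether a label of either array is wrong was not tested, and the couple 4 and couple 5 differences take the labels as given. They shared no identical value, and their median absolute difference of 0.332 log2 units was the lowest of the 66 array pairs. Couples 4 and 5 are therefore also left out one at a time where calls are counted. The JulyB arrays of couples 1 and 2, both of plots 2 and 3, followed with r = 0.419.

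More probes carried a value at JulyB than at JulyA in plots 4 to 9, and fewer did in plots 2 and 3. The JulyB arrays carried 3144, 3814, 6586, 6019, 6041 and 5273 values in couples 1 to 6. The JulyA arrays carried 3370, 4890, 5200, 4079, 4392 and 3916 values in the same order. The sets overlapped, and the JulyB arrays of plots 2 and 3 were the lowest of their set. JulyB averaged 5146 ± 1374 values and JulyA 4308 ± 667 (SD, n = 6 each). The difference of 838 ± 1203 was smaller than its spread over couples, with JulyB higher in 4 of 6 (exact two-sided sign-flip permutation p = 0.125).

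**Figure D1:**
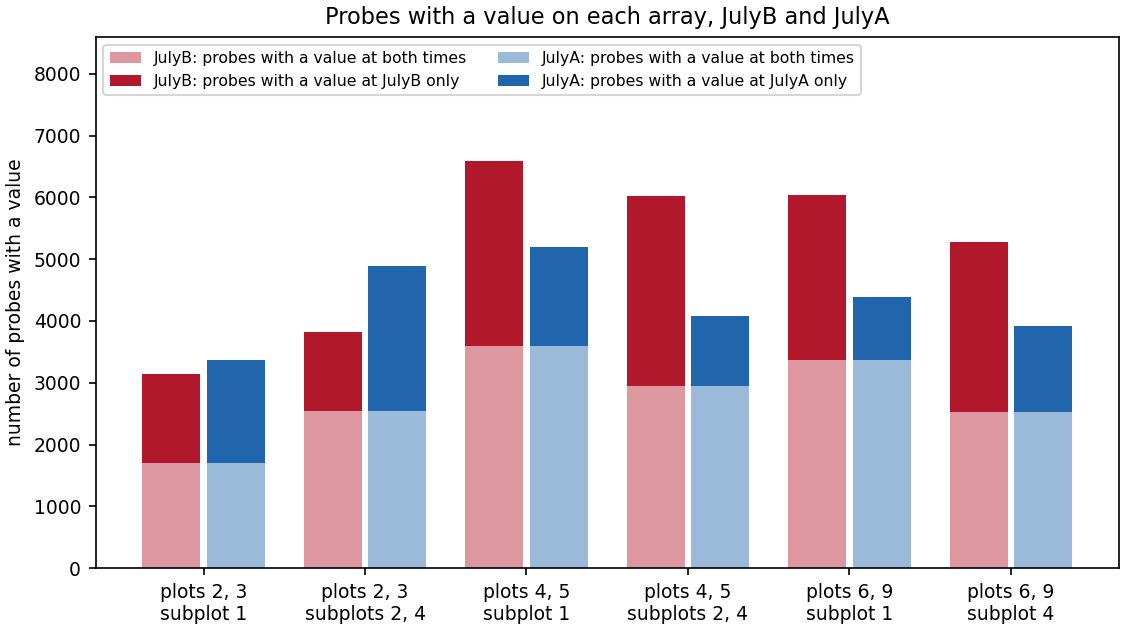
Number of probes with a value on each array (y axis) for the 6 couples (x axis, named by plots and subplots), with the JulyB bar left of the JulyA bar; the pale part counts probes with a value at both times and the full part those with a value at that time only. JulyB exceeds JulyA in the 4 couples of plots 4 to 9, and JulyA exceeds JulyB in both couples of plots 2 and 3.

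In the 4 couples of plots 4 to 9 the difference was 1583 ± 272 probes (SD, n = 4), and the exact sign-flip permutation test gave p = 0.125, which is the lowest possible with 4 couples. In plots 2 and 3 it was -226 and -1076 probes. The mean difference of plots 2 and 3 minus that of plots 4 to 9 was -2234 probes (exact permutation of couples p = 0.0667, the smallest that 2 against 4 couples allow). This split was not planned, and the permutation treats couples of the same plot pair as separate units. Plots 2 and 3 are also the only couples in which the dye orientation differed, so plots and orientation cannot be told apart here. For context, the August array of plots 2 and 3 in the orientation of their JulyB arrays carried 9530 values, and the August array in the other orientation 6999. That is 1 array each, and their subplots differ too. The June arrays of plots 2 and 3, both in the orientation of JulyA, carried 3272 and 3973 values. The cause of these differences in number was not tested. Among probes with 1 gene symbol the counts averaged 812 ± 192 at JulyB and 705 ± 75.7 at JulyA (SD, n = 6 each; exact sign-flip permutation p = 0.156).

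Within a couple, many probes had a value at only 1 of the times. Between 47.9% and 66.6% of the probes with a JulyB value also had a JulyA value in that couple. Between 50.6% and 76.7% of the probes with a JulyA value also had a JulyB value. Over the 12 arrays, 12102 probes had at least 1 value and 583 had a value on every array. Of all probes, 6033 (31.4%) had values on more JulyB than JulyA arrays and 3492 (18.2%) on more JulyA than JulyB arrays.

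Ratios of probes seen at only 1 time were wider than those of probes seen at both. At JulyB the scaled median absolute deviation was 0.57 to 0.84 for probes without a JulyA value, against 0.45 to 0.60 for probes with one, and it was wider in 6 of 6 couples. At JulyA it was 0.53 to 1.005 for probes without a JulyB value, against 0.47 to 0.69 for probes with one, again wider in 6 of 6. Over whole arrays the width was alike in size, 0.61 ± 0.08 at JulyB and 0.62 ± 0.12 at JulyA (SD, n = 6 each; exact sign-flip permutation p = 1).

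At the level of single probes, 41 (0.214% of all) had a value on at least 5 more JulyB arrays, and 6 (0.0312%) on at least 5 more JulyA arrays. Of the 41, 3 had a gene symbol, and of the 6 none had. Probe 6038 of mbd115, a methyl-CpG-binding domain gene, had a value on 6 JulyB arrays and 1 JulyA array. In the other months that probe had a value on 3 of 11 June arrays and 8 of 11 August arrays. Probe 6066 of LOC100037751 had a value on 6 JulyB arrays and 0 JulyA arrays, and probe 1742 of LOC541649 on 5 JulyB arrays and 0 JulyA arrays. No test per probe was run, because 6 couples cannot pass an adjustment over all probes.

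In plots 4 to 9, where the dye orientation is the same, 155 probes (0.807%) had a value on all 4 JulyB arrays and no JulyA array, against 7 (0.0365%) with the reverse. The 155 had a value on 69.7% of August arrays and 21.5% of June arrays on average. The 7 probes with the reverse had a value on 71.4% of August arrays and 62.3% of June arrays, so the August share was high in both sets. Probes with at least 1 July value had one on 57.2% of August arrays and 32.4% of June arrays. Of the 155 probes 26 carried a gene symbol, each of a different gene. The genes among them with a name other than a locus number, picked after their values were seen, were mbd105, mbd115 and OBF1, a bZIP transcription factor. In plots 2 and 3, probe 8018 of mbd105 had a value on 2 JulyA arrays, and probe 6624 of OBF1 and probe 6038 of mbd115 on 1 each.

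Within genes, the share of probe values present followed the arrays. It was 26.8% at JulyB and 22.4% at JulyA over all probes, and 45.1% at JulyB and 39.2% at JulyA over probes with 1 symbol. Of 88 genes with at least 5 probes, 69 had a higher share and 10 a lower share at JulyB. The heat shock chaperone hsp70-4 had 84.5% of its 14 probes' values at JulyB and 70.2% at JulyA. Its relative hsp70-5, with 8 probes, had 100% at JulyB and 91.7% at JulyA, so nearly every hsp70-5 probe was measured at both times.

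Of the 6 annotated methyl-CpG-binding genes, 5 had a higher share of values at JulyB and mbd101 had 8.33% at both times over 4 probes. Among genes with at least 5 probes it was 69 of 88, so a higher share is not particular to the mbd genes. Most mbd genes have fewer probes than those 88. The gene mbd105, with 3 probes, had 66.7% of its values at JulyB and 16.7% at JulyA. With 5 probes, mbd106 had 70.0% at JulyB and 43.3% at JulyA, and mbd115, with 12 probes, had 54.2% at JulyB and 37.5% at JulyA. Couple by couple, mbd105 and mbd106 had fewer values at JulyB in none, while mbd115 had more in the 4 couples of plots 4 to 9 and fewer in the 2 of plots 2 and 3. With 3 probes, mbd109 had 16.7% at JulyB and 11.1% at JulyA, and the 1 probe of mbd111 had 100% at JulyB and 66.7% at JulyA. The tubulin tua4, with 12 probes, had 41.7% at JulyB and 29.2% at JulyA, with the same split of couples as mbd115. LOC542316 had more values at JulyB in 6 of 6 couples, 47.9% at JulyB and 20.8% at JulyA over 8 probes.

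Shares at JulyB and JulyA lay within 6 percentage points of each other for MNB1b, TCTP, Sod4A and RPL27A. So did the shares over all probes with 1 symbol, 45.1% at JulyB and 39.2% at JulyA. MNB1b, with 230 probes, had 70.7% of its values at JulyB and 68.0% at JulyA. By couple it had more values at JulyB in 4 and fewer in 2, from 97 against 145 in couple 1 to 181 against 136 in couple 6. TCTP, the translationally controlled tumor protein that is abundant in growing cells, had 72.9% at JulyB and 67.7% at JulyA over 16 probes. Sod4A was among the 10 genes with a lower share, 68.3% at JulyB and 71.7% at JulyA over 20 probes. RPL27A, a protein of the large ribosomal subunit, had 66.7% at JulyB and 61.9% at JulyA over 7 probes. The differences by gene were not tested.

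For the plot ratio, the question was which transcripts had another measured balance between partner plots at JulyB than at JulyA. The fit over plot pairs covered the 583 probes with a value on all 12 arrays (3.04% of all probes). Those that passed its test belonged to MNB1b, whose probes mostly shared a sign within each couple and had opposite signs between plot pairs. Across its 17 probes with a value on all 12 arrays, the mean log2 ratio was -0.99, -0.86, -1.05, -0.03, 1.07 and -0.37 on the JulyB arrays of couples 1 to 6. On the JulyA arrays it was 0.26, 1.37, 0.80, 0.13, 0.04 and -1.11. JulyB was the lower of each couple in plots 2 and 3 and plots 4 and 5, and the higher of each in plots 6 and 9.

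All 17 probes were lower at JulyB for plots 2 and 3 (median difference -1.75). For plots 4 and 5 all were lower as well (median -1.05), whereas for plots 6 and 9 all were higher (median 0.85). Over all 583 probes with a value on every array the medians were -0.07, 0.02 and 0.06 in the same order of plot pairs. Of the 17 MNB1b probes 16 had an unadjusted p under 0.05 in limma's moderated F test over plot pairs, against 13% of all 583 probes. Probes with the same symbol may read the same transcript, which was not checked, so they cannot be counted as separate observations. The symbol MNB1b was carried by 230 probes, against 28 for LOC542725, the next most. Whether all of the 230 read MNB1b was not checked.

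**Figure D2:**
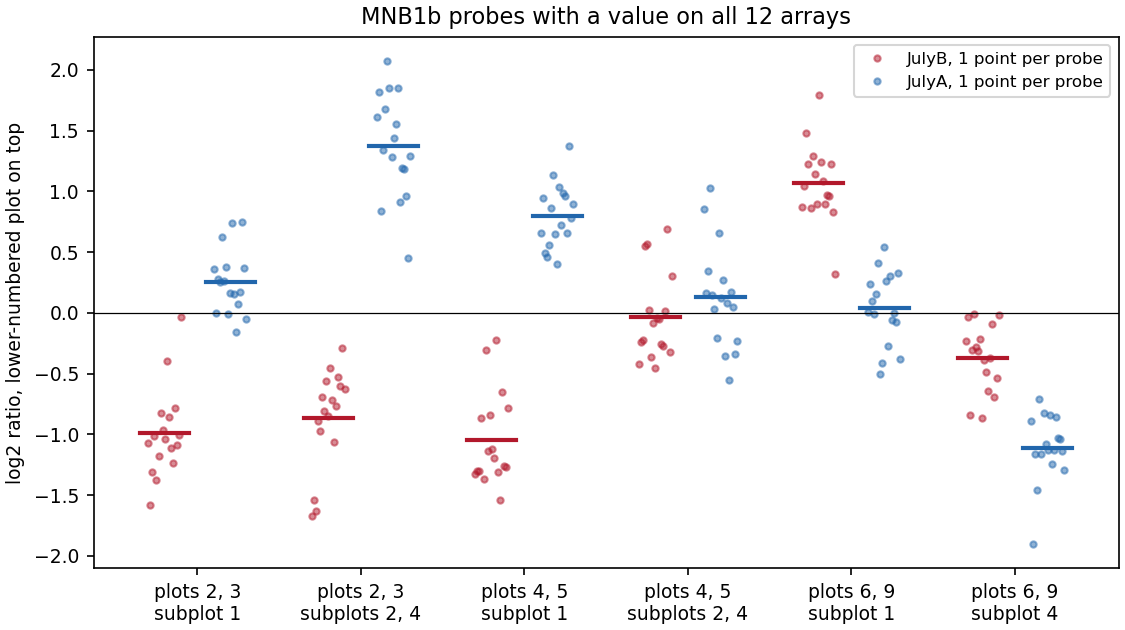
Log2 plot ratio (y axis, lower-numbered plot on top) of the 17 MNB1b probes with a value on all 12 arrays, for the 6 couples (x axis); each point is a probe, each bar the mean over probes, with JulyB left of JulyA. JulyB lies below JulyA in the couples of plots 2 to 5 and above JulyA in those of plots 6 and 9.

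Using every MNB1b probe measured at both times of a couple gave the same order. In couple 3 (plots 4 and 5, subplot 1), 165 of 166 probes were lower at JulyB, with a median difference of -2.06. In couple 5 (plots 6 and 9, subplot 1), 160 of 162 were higher, with a median of 1.16. Couple 4 was closer to 0, with 116 of 151 lower and a median of -0.41, and in couple 6, 96 of 112 were higher with a median of 0.58. In plots 2 and 3, 59 of 67 were lower in couple 1 (median -0.88) and 69 of 72 in couple 2 (median -2.35).

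As deposited, the plots 2 and 3 result was another one. There 53 of 67 MNB1b probes were higher at JulyB in couple 1, with a median of 0.55, and 15 of 72 in couple 2, with a median of -0.39. The mean difference of the 17 probes in plots 2 and 3 was then 0.11, against -1.74 turned. The opposite signs of plots 4 and 5 and plots 6 and 9 do not depend on the turning.

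In the limma fit of 583 probes, 2 passed a Benjamini-Hochberg adjusted p under 0.05 (0.343%), both of MNB1b. The log2 ratio of probe 10564 was -1.07, -1.67, -1.33, -0.42, 0.87 and -0.24 at JulyB and 0.36, 1.61, 0.66, 0.86, 0.01 and -0.89 at JulyA in couples 1 to 6. It fell by 2.35 in plots 2 and 3 and by 1.63 in plots 4 and 5, and its difference was 0.76 in plots 6 and 9 (SE 0.49 each, adjusted p = 0.0424 in limma). Probe 4959 gave differences of -2.47, -1.32 and 1.34 (SE 0.54 each) with the same adjusted p.

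These calls were sensitive to the fit. With no replicate block, that is without matching arrays into couples, limma called 0 of the 583 (0%), while 77 (13.2%) had an unadjusted p under 0.05, with a smallest adjusted p of 0.163. With ratios as deposited it called 0 (0%), with 47 probes (8.06%) at an unadjusted p under 0.05. Leaving out 1 couple gave 8 calls without couple 1, 17 without couple 3 and 28 without couple 4, and 0 without couple 2, 5 or 6. As 1 value per gene, MNB1b had differences of -1.74 (plots 2 and 3), -1.01 (plots 4 and 5) and 0.88 (plots 6 and 9; SE 0.46 each), which did not pass (limma adjusted p = 0.132 over 49 genes).

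LOC541886 was the gene whose ratio was higher at JulyB in every couple. Its probe 10426 had log2 ratios of 0.46, -0.22, 0.54, 0.85, -0.23 and 0.39 at JulyB, against -0.47, -1.72, -1.04, -0.56, -0.71 and -0.76 at JulyA. Every JulyB value lay above every JulyA value. The mean difference was 1.17 ± 0.25 (SE), higher in 6 of 6 couples, and did not pass when adjusted over 1324 probes (limma adjusted p = 0.481).

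Other probes of LOC541886 gave differences of the same sign. In couples 1, 3, 4, 5 and 6 every probe measured at both times was higher at JulyB, and in couple 2 it was 3 of 4 probes. The medians over its probes ran from 0.75 in couple 2 to 1.56 in couple 3. As deposited, probe 10426 differed by 0.00 in couple 1 and by 1.94 in couple 2, so in couple 1 the difference rests on the turning. Per gene, its differences of 1.22, 1.49 and 0.81 in plots 2 and 3, 4 and 5, and 6 and 9 (SE 0.38 each) had the smallest adjusted p of the 49 genes (limma adjusted p = 0.0870). Only probe 10426 entered that gene value, so it is not a further observation.

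**Figure D3:**
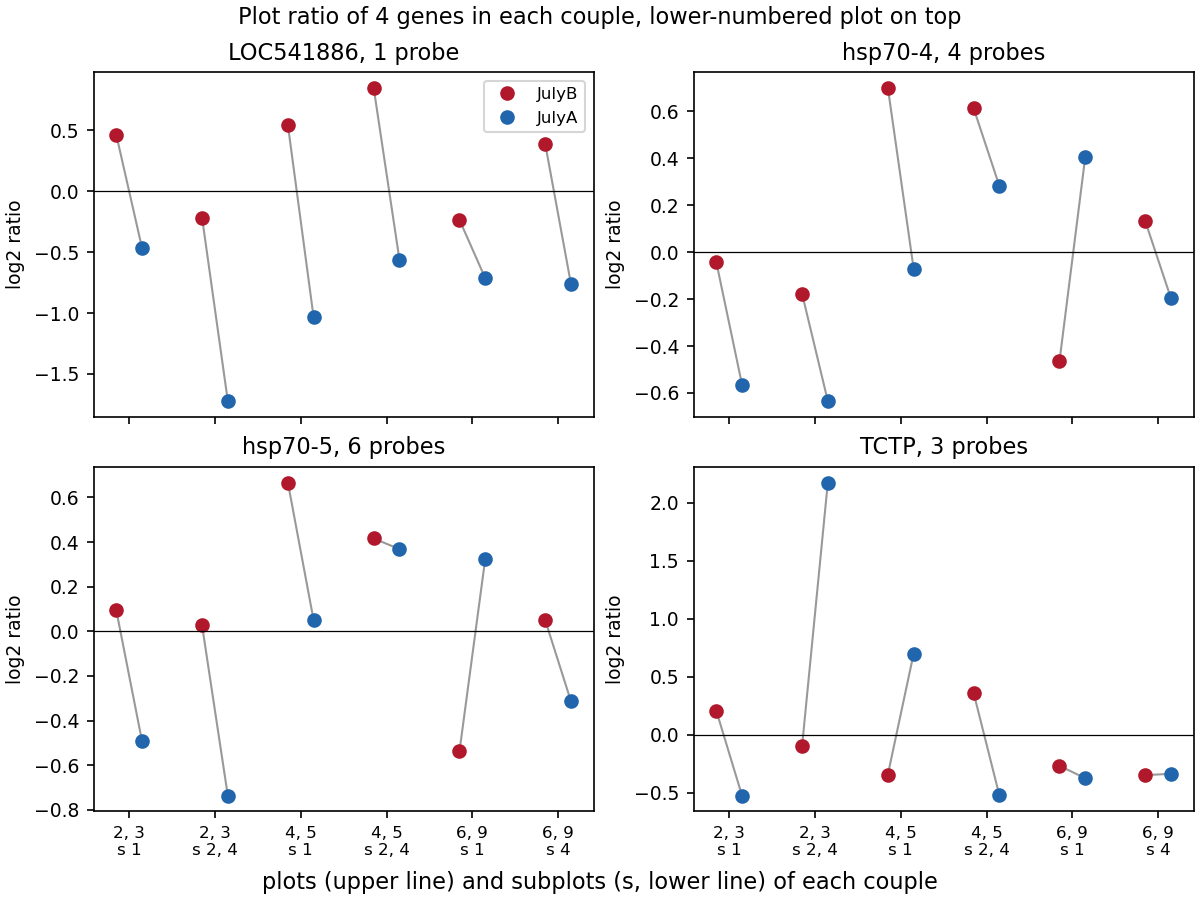
Log2 plot ratio (y axes, lower-numbered plot on top) of LOC541886, hsp70-4, hsp70-5 and TCTP, as the mean over their probes with a value on all 12 arrays, for the 6 couples (x axis); JulyB is left of JulyA and a line joins the arrays of a couple. For LOC541886 this is 1 probe. That gene is higher at JulyB in 6 of 6 couples, both hsp70 genes in 5 of 6, and TCTP stands highest on the JulyA array of couple 2 at 2.18.

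A difference of 1 sign in all 6 couples was found in 3.26% of the 583 probes. Independent random signs would give it with probability 0.03125, so the share was near that of random signs. Of the 583 probes, 11 (1.89%) were higher at JulyB in every couple and 8 (1.37%) lower in every couple. Of these 19 probes 3 had a symbol: LOC541886 probe 10426, higher, and LOC541841 probe 4005 and LOC542458 probe 1293, both lower. LOC542458 probe 1293 had a mean difference of -0.52 ± 0.23 (SE; limma adjusted p = 0.826). These counts depend on the turning in couples 1 and 2.

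The hsp70 chaperone genes had higher ratios at JulyB in 5 of 6 couples, with couple 5 as the exception. In the gene fit LOC542367 and LOC542479 had the same exception. LOC542115 and LOC542316 were also higher in 5 of 6, so this count is not particular to hsp70. The 4 hsp70-4 probes measured on all arrays averaged -0.04, -0.18, 0.70, 0.61, -0.46 and 0.13 at JulyB, against -0.56, -0.63, -0.07, 0.28, 0.40 and -0.20 at JulyA. The 6 hsp70-5 probes averaged 0.09, 0.03, 0.67, 0.42, -0.54 and 0.05 at JulyB, against -0.49, -0.74, 0.05, 0.37, 0.32 and -0.31 at JulyA. The sets overlapped for both genes.

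Within couples the hsp70 probes went together. In couple 3 all 8 measured hsp70-4 probes and all 8 hsp70-5 probes were higher at JulyB, and in couple 5 all 11 hsp70-4 and all 8 hsp70-5 probes were lower. The median differences in couple 5 were -0.70 for hsp70-4 and -0.82 for hsp70-5. In plots 2 and 3 the difference was above 0 in both versions of the ratio, 0.49 turned and 0.71 as deposited for hsp70-4, and 0.67 turned and 0.55 as deposited for hsp70-5. Neither gene passed the test over plot pairs (limma adjusted p = 0.642 for each).

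Among locus-numbered genes, LOC542316 probe 2840 was higher at JulyB in 5 of 6 couples. Its log2 ratios were 0.63, 0.67, 0.02, 0.99, -0.36 and 0.08 at JulyB, against -0.86, -0.59, 0.27, -0.68, -0.996 and -0.57 at JulyA. The JulyA value of couple 3 stood above the rest of its set. The mean difference was 0.91 ± 0.29 (SE; limma adjusted p = 0.620). As deposited, its mean difference in plots 2 and 3 was 0.08, against 1.37 turned.

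LOC542115 had a higher ratio at JulyB in plots 4 and 5. The mean of its 2 probes there was 0.88 and 0.83 at JulyB, against -0.33 and -0.73 at JulyA, a difference of 1.39 ± 0.38 (SE). In plots 6 and 9 the difference was -0.10, and the gene did not pass (limma adjusted p = 0.199). All 4 of its measured probes were higher at JulyB in both couples of plots 4 and 5.

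LOC541675 had values like those of MNB1b at probe 11331, with differences of -1.39 (plots 2 and 3), -1.26 (plots 4 and 5) and 0.28 (plots 6 and 9; SE 0.42 each, limma adjusted p = 0.132 per gene). That gene value rests on probe 11331 alone. The gene's other probes disagreed: probe 10483 differed by 1.32 in couple 3 and by -3.36 in couple 5. LOC542021 probe 3619 differed by -1.75 in plots 2 and 3, by 0.36 in plots 4 and 5 and by -0.17 in plots 6 and 9 (SE 0.46 each, limma adjusted p = 0.199 per gene, with that probe alone). As deposited, that plots 2 and 3 difference was -0.83.

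**Figure D4:**
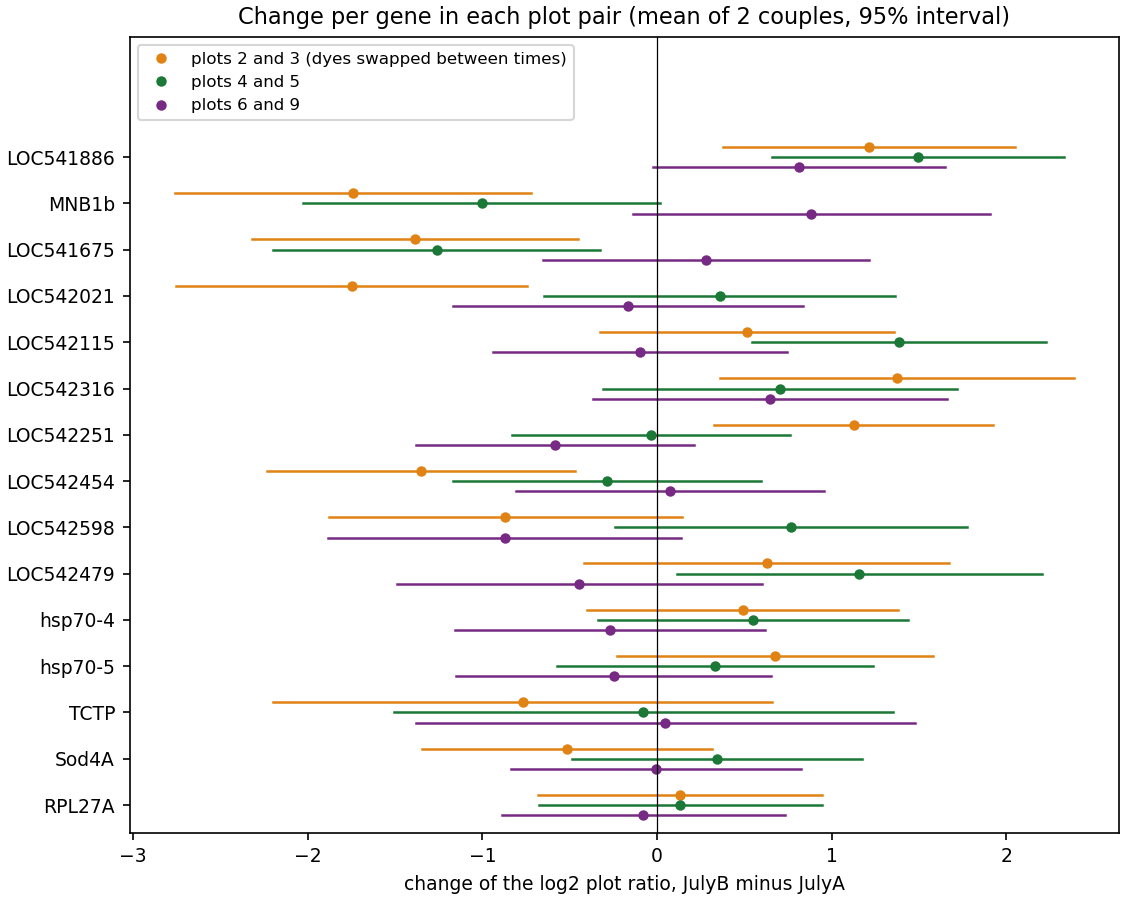
JulyB-minus-JulyA difference of the log2 plot ratio (x axis) for 15 genes (y axis) in each plot pair; points are means of 2 couples and lines are 95% intervals from limma. The MNB1b point is below 0 in plots 2 and 3 and plots 4 and 5 and above 0 in plots 6 and 9. The LOC541886 point is above 0 in all 3 plot pairs. The MNB1b interval includes 0 in plots 4 and 5 and in plots 6 and 9, and that of LOC541886 in plots 6 and 9. No gene passed the test over 49 genes.

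Plots 4 to 9, with the same dye orientation at both times, gave a test that does not depend on the turning. With values on all 8 arrays there were 1091 probes, and limma called 0 of them (0%) for a difference in either plot pair. At an unadjusted p under 0.05 there were 66 (6.05%). For the contrast between plots 6 and 9 and plots 4 and 5 it called 0 (0%), with 97 (8.89%) at an unadjusted p under 0.05 and a smallest adjusted p of 0.326. That adjusted p was shared by MNB1b probes 7446 and 8841, with contrasts of 2.98 and 2.93 (SE 0.76 each), and by probe 9636, which differed by -2.20, -0.42, 1.58 and 1.79 in couples 3 to 6.

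LOC542737 had the largest contrast in the other direction among the named probes. Its probe 12538 had log2 ratios of 1.22, -1.53, -2.77 and -1.25 at JulyB, against -1.31, -0.81, -0.66 and 2.06 at JulyA, in couples 3 to 6. The couples of plots 4 and 5 went apart, 2.53 and -0.72, while both of plots 6 and 9 were lower at JulyB, -2.11 and -3.31. The contrast was -3.61 ± 0.96 (SE; limma adjusted p = 0.326). The gene's probes moved together in couples 3, 5 and 6. All 6 measured were higher in couple 3 (median 2.70). All 6 in couple 5 (median -1.13) and all 3 in couple 6 (median -3.20) were lower. In couple 4, 6 of 7 were lower. With turned ratios, 6 of 6 were higher in couple 1 and 2 of 7 in couple 2.

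LOC100125638 probe 10222 had a similar order of couples. Its differences were 1.97, -0.47, -1.47 and -2.84 in couples 3 to 6, and its contrast was -2.90 ± 0.88 (SE; limma adjusted p = 0.326). LOC542301 stood apart in couple 6, where 14 of 14 probes were higher at JulyB with a median of 1.24. Its probe 8494 was -1.56 on the JulyA array of that couple, the lowest of its 12 values.

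The other gene groups gave smaller or mixed differences. TCTP, measured by 3 probes on all arrays, averaged 2.18 on the JulyA array of couple 2, against 0.36 as its highest JulyB value. All 9 TCTP probes were lower at JulyB in couple 2 and in couple 3, with medians of -1.61 and -0.91, and all 9 were higher in couple 4, with a median of 0.80. Over plot pairs TCTP did not pass (limma adjusted p = 0.842).

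Sod4A ran from -0.52 to 0.18 at JulyB and from -0.26 to 0.33 at JulyA, so the sets overlapped. In couple 1 all 10 of its probes were lower at JulyB, with a median of -0.73, while as deposited 8 of the 10 were higher. It did not pass (limma adjusted p = 0.662), nor did RPL27A, whose differences of 0.13, 0.13 and -0.08 (SE 0.37 each) lay near 0 in all plot pairs (limma adjusted p = 0.978).

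The mbd and tubulin genes had no probe on all 12 arrays and did not enter the gene fit. In couples 1 and 2 all 5 and all 4 measured mbd probes were higher at JulyB when turned, and as deposited it was 2 of 5 and 2 of 4. In couples 3, 4 and 5, 4 of 8, 3 of 10 and 4 of 7 mbd probes were higher, and in couple 6 the 1 measured was lower. The opr genes, for oxophytodienoate reductases that act in jasmonate synthesis, had no probe with a value at both times in any couple.

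Among the probes and genes that could be tested, few or no ratios separated the sets. Probes with too few values entered no test. The test of the mean difference over couples called 0 of the 1324 probes (0%) in limma, although 77 (5.82%) had an unadjusted p under 0.05. As deposited it also called 0 (0%), with 49 (3.7%) at an unadjusted p under 0.05. The gene fit called 0 of 49 genes (0%), with 8 (16.3%) at an unadjusted p under 0.05, and as deposited 0 (0%), with 1 (2.04%). Leaving out couple 3, 4, 5 or 6 gave 7, 6, 4 or 5 gene calls, and leaving out couple 1 or 2 gave 0.

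Ratio profiles of the arrays of a couple had low correlations, of both signs. As deposited, the correlation across probes between the JulyB and the JulyA array was 0.206, 0.170, -0.256, -0.0289, 0.0588 and 0.133 in couples 1 to 6. Turned, the first pair of values becomes -0.206 and -0.170. Arrays of different couples at different times had a median correlation of 0.0878 as deposited, with a range from -0.178 to 0.330 over 30 array pairs. Turned, that median was 0.0332. The median within couples was 0.0958 as deposited and -0.0997 turned. Probes of an array share its hybridisation and genes are not independent replicates, so these values are descriptions.

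Couples with the same codes at both times gave no common sign. Couple 4, with both codes the same, had -0.0289 and couple 5 had 0.0588. Couple 1, with the dyes exchanged, had -0.206 turned, which is the like comparison of plots, and 0.206 as deposited. As deposited and without the MNB1b probes, the value of couple 3 was -0.159 in place of -0.256. The others were then 0.197, 0.110, -0.0246, 0.0664 and 0.0935 in couples 1, 2, 4, 5 and 6.

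**Figure D5:**
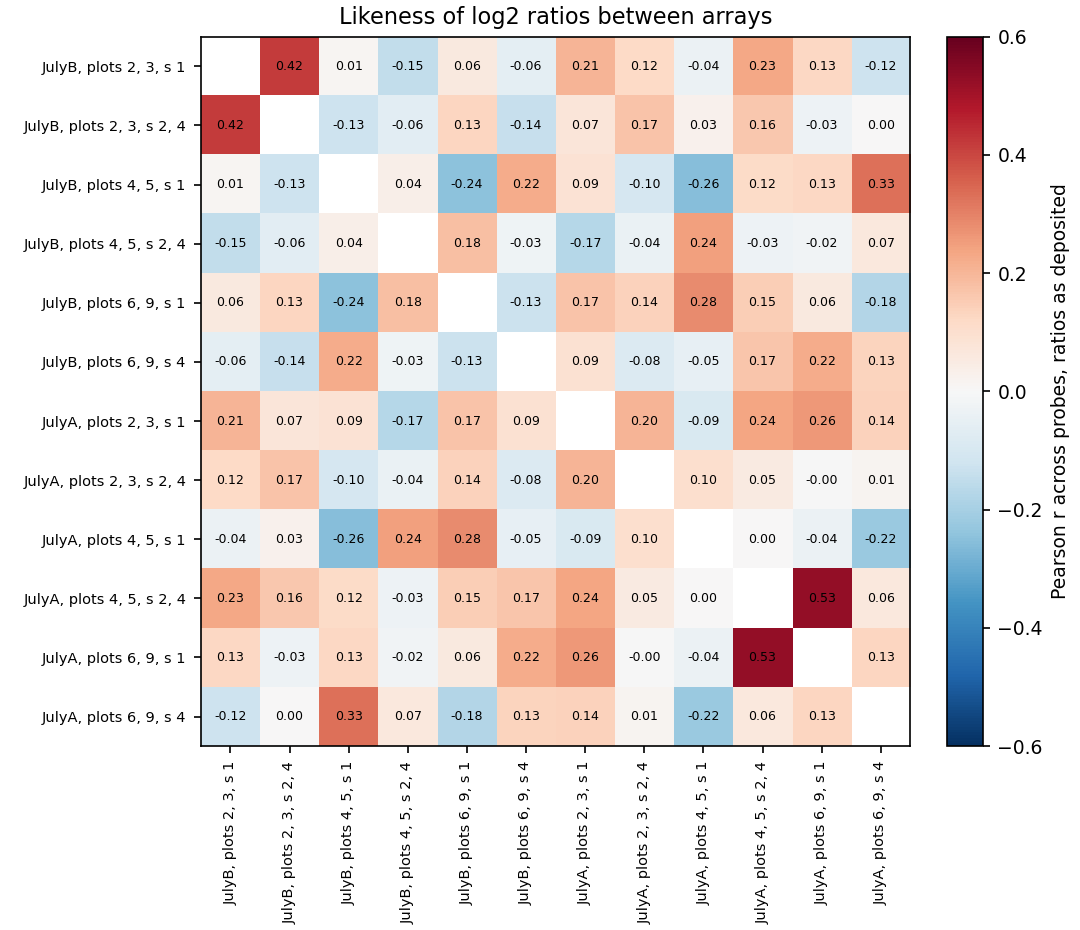
Pearson correlation across probes (colour and printed values) of the log2 ratios as deposited between every 2 of the 12 arrays, JulyB arrays first on both axes. The arrays of couples 4 and 5 at JulyA stand highest at 0.528, and the JulyB and JulyA arrays of couple 3 stand lowest at -0.256.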

How the data were processed

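RNA was extracted with an RNeasy kit and labelled with a Genisphere kit, per the labels' protocols. The authors deposited 1 table of log10 ratios, 1 column per array, with gaps. The log10 scale was read from the values: 93.3% to 99.1% of an array's deposited values equalled the log10 of some whole-number ratio (denominators to 1000, tolerance 6e-10), and at most 0.149% did after a small shift. The sources used here do not give the scanner, background correction, normalization, filters, the ratio's direction or what makes a value missing. 1 further column of per-sample values was not used, and 1 array with 1 plant code in both channels entered no comparison.

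Values were converted to log2 and turned by the dye labels. Couples were matched by plot pair and subplot digits in the labels. Within-couple correlations across probes as deposited were above 0.1 in 3 of the 6 couples, namely couples 1, 2 and 6. Turned, as in the fits, those of couples 1 and 2 were -0.206 and -0.170, and the median over couples was -0.0997. The data alone therefore do not show the pairing, and the fit without it stands beside the calls. limma 3.58.1 (R 4.3.3; lmFit, eBayes) was run on the differences per couple, with moderated F tests over plot pairs for probes with values on all arrays, a test of the mean for probes with values in at least 5 couples, and Benjamini-Hochberg adjustment. The code was tested on simulated data. Gene values were means over probes of 1 symbol. Nothing says that arrays hold separate plants, so p-values measure the spread between these arrays, which may be technical. Precision is limited by the number of arrays, and signal over background is not in the table used.

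Named were, per limma comparison, up to 10 probes with 1 symbol and the smallest p (at most 3 of a gene), the 10 genes with the smallest p, the groups MNB1b, hsp70, TCTP, Sod4A, mbd, tubulin, RPL27A and opr, and probes with values on at least 5 more arrays at 1 time. Members and lists were chosen with earlier results of these data known. Alternatives were ratios as deposited, no replicate block, other filters, centring, scaling, all usable arrays with a dye term (statmod 1.5.0), and each couple left out.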

Additional observations from a re-analysis of the deposited data

Results flagged for a closer look

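The LOC542316 gene mean, which is the value of its probe 2840 alone, had 1 JulyA array apart from the rest. The gap of the highest value, 0.27 on the couple 3 array of plots 4 and 5, to the next was 0.666 of the range, with a median of -0.63 and a lowest value of -0.996. The hsp70-4 differences between JulyB and JulyA had 1 couple apart: -0.87 in couple 5 of plots 6 and 9, with a gap of 0.731 of the range, a median of 0.39 and a highest value of 0.77. Of 51 groups of 6 values examined 2 had such a value, and chance gives about 1 in 20.

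The JulyB-minus-JulyA difference in the number of probes with a value was unlike between plot pairs, with plots 2 and 3 at -2234 relative to plots 4 to 9 (exact permutation of couples p = 0.0667, the smallest allowed). The split was not planned, and the permutation treats couples of the same plot pair as separate units. Plot pair and dye orientation cannot be told apart in this difference.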

How the results depend on the processing

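The 2 calls for a ratio difference in any plot pair became 0 with ratios as deposited, with array medians subtracted, with arrays scaled to equal spread, with no replicate block, with values in at least 5 couples and with all usable arrays and a dye term (425 probes, 34 arrays). For the probes named from that fit, 18 alternative values lost a call, which only the 2 called MNB1b probes could do. Another 94 stayed on their side of the threshold, mostly of probes without a call in either fit, and 4 gained a call. Leaving out 1 couple gave 0 to 28 calls, and 0 to 7 genes in the gene fit, where 0 were called with all couples. A plot pair left with 1 couple was then assumed to vary like the others. In plots 4 to 9, requiring values in at least 3 of 4 couples gave 2 calls in place of 0. With no replicate block no other count of calls was altered, and the number of values differed by 838 as before (exact permutation p = 0.208). The cause of these differences was not tested. The number of values differed by 618 to 1221 when 1 couple was left out, and by 108 and 820 over probes with 1 symbol and over probes seen in June or August. The difference in spread, -0.01, was 0.00719 by the standard deviation and between -0.0519 and 0.0483 with 1 couple left out (0.00869 without couple 2), so it has no stable sign. The mean difference of LOC542458 probe 10522 was 0.19 as deposited, against -0.66 turned. With 6 couples and gaps on every array, probes absent from some arrays could not enter the tests over plot pairs.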
